A study of Mus musculus with 6 samples.

Results

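Postsynaptic scaffold and synaptic adhesion genes were examined in mouse cerebral cortex as a list of 33 genes. A gene was a member where a non-control probe of the array carried its symbol, which held for 26 genes with 48 probes. A further 5, Dlg1, Dlg2, Dlg3, Dlg4 and Akap5, stood on the array under older names (Dlgh1 to Dlgh4 and a cDNA clone name) that a gene table pairs with them, and they were counted as members too. No probe was matched to Shank2 or Begain, so 31 members with 58 probes were measured, of 17121 genes tested in all. The brightest probe over the 6 arrays stood for each gene.

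The study measured RNA of cerebral cortex from male mice on 1-colour Agilent arrays, with 1 array per sample, 3 samples titled WT (numbers 15, 62 and 16) and 3 titled ko (numbers 53, 48 and 54). The Cux2 ko samples carry the genotype label Cux2-/-, whereas the WT-titled samples carry the label Cux2+/- although their titles and source call them wild-type, a conflict the labels do not settle, so the comparison may be with heterozygotes. No treatment is named, and age, strain and allele design are not given in the sources used here. The labels do not say whether the samples of a group came from different animals, so a p-value here reflects the spread among these arrays only, which may be technical, and their number limits the precision.

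At an excitatory synapse, the scaffold proteins of the postsynaptic density hold glutamate receptors opposite the site of transmitter release. MAGUK proteins such as PSD-95 bind receptors and are linked through the DLGAP proteins to SHANK and HOMER proteins, which reach the actin skeleton and calcium stores, while the kinase CaMKII is abundant beside them. Neuroligins and LRRTM proteins of the postsynaptic membrane bind neurexins across the cleft, and Cux2, a homeodomain factor of upper-layer neurons, is known for its part in dendrite and spine formation in these neurons.

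Of the 31 members, 0 passed an adjusted p of 0.05 (limma, Benjamini-Hochberg adjustment over all 25504 probes tested), where 22 of all 17121 genes, or 0.128%, passed. At an unadjusted p under 0.05 the count was 1 member, against 8.27% of all genes. That member was higher in ko, as were 3.89% of all genes at this level, and 0 members were lower, beside 4.38% of all genes. For 3 members the 3 ko arrays lay on one side of the 3 WT-titled arrays, against 13.6% of all genes. These were 2 higher members, beside 6.38% of all genes, and 1 lower, beside 7.24%. No share stood clearly above that of all genes. The members' differences between the groups ran from -0.21 for Lrrtm2 to +0.27 for Lrrtm1 on the log2 scale, with 20 higher and 11 lower in ko. The split was 12 to 19 with normexp and the 75th percentile and 29 to 2 without scaling between arrays. The median was +0.03 beside -0.0060 over all genes, of which 48.2% were higher. The direction of this median turned to -0.023 where normexp corrected the background before the 75th percentile was taken. All genes had a median of +0.033 there and 56.3% of them were higher, so the members' median lay below that of all genes. Without scaling between arrays the members' median was +0.20, where all genes had a median of +0.17 and 86.5% of them were higher.

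On their brightest probes most members had narrow intervals. The 95% interval of the difference (limma) lay within a 1.5-fold change either way for 30 of the 31 members, against 79.4% of all genes. It lay within a 1.25-fold change for 13 of them, or 41.9%, beside 38.8% of all genes. The exception at 1.5-fold was Lrrtm4, whose interval reached past a 2-fold change both ways. Intervals of some dimmer probes also reached past 1.5-fold, as for Dlg1 (up to +0.91), Homer1 (up to +0.95) and Pick1 (down to -1.11). All these intervals come from the main settings and rest on the spread among these arrays, which may be technical. Counts within these folds are not given for other settings. With normexp and the 75th percentile, for example, Dlg2 stood at +0.30 with an unadjusted p of 0.532 in limma. In the main settings it stood at +0.070 with 0.422, so its interval was wider with normexp.

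**Figure D1:**
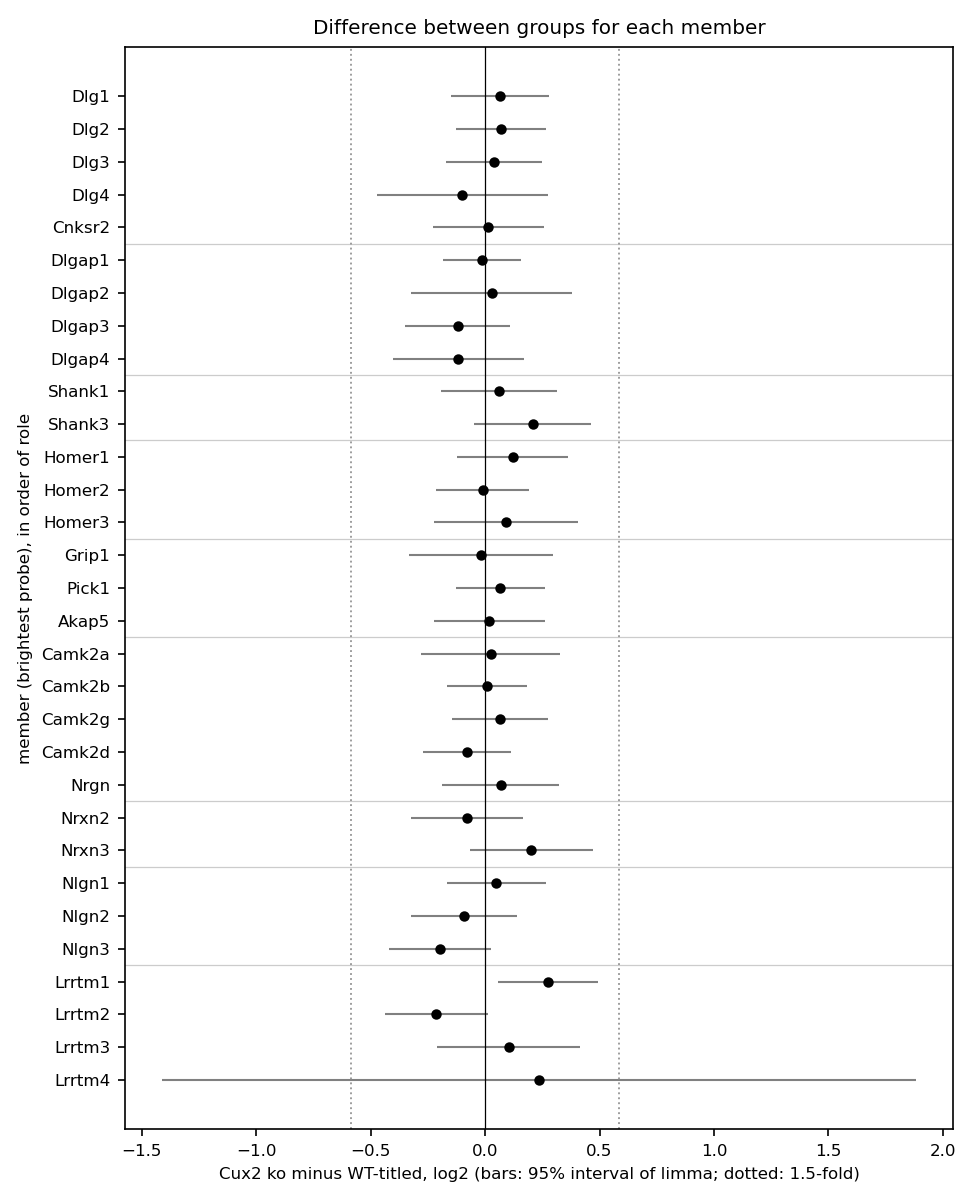
Difference between Cux2 ko and WT-titled arrays for the brightest probe of each member, in log2 units, with bars for the 95% interval of limma and n = 3 arrays per group. Dotted lines mark a 1.5-fold change, and Lrrtm4 is the only member whose interval crosses them.

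Each level below is the log2 signal minus the array's 75th percentile, so 0 is the brightness of that percentile, and levels of different probes were not compared with each other. Brightest probes of all 31 members were well above background on all 6 arrays. All 8 neuronal markers examined, such as the synaptic protein gene Snap25 and the vesicular glutamate transporter gene Slc17a7, were also well above background on all 6, and the 4 liver markers with a probe were so on none. The share of probes well above background ran from 58.5% to 72.7% over the arrays, and 2 slides carried them, 1 WT-titled and 2 ko arrays on one and 2 WT-titled and 1 ko arrays on the other. Cux2, the targeted gene, differed by -0.12 (95% interval -0.36 to 0.12, limma adjusted p = 0.838), and its second probe by +0.079. No source used here says whether these probes lie in the deleted sequence, so they check nothing about the labels.

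Markers of several cell types leaned lower or higher in ko, without any marker passing the adjusted threshold. Microglial markers were lower in ko for 9 of 9 and striatal markers for 9 of 9, with mean deviations from each gene's mean of 0.11 to 0.40 (WT-titled) and -0.30 to -0.16 (ko) for microglia and of -0.21 to 0.50 (WT-titled) and -0.37 to -0.16 (ko) for striatum. Astrocyte markers were lower for 7 of 8, at 0.082 to 0.13 on WT-titled and -0.16 to -0.045 on ko arrays. Deep-layer neuron markers were lower for 7 of 8, at 0.038 to 0.091 on WT-titled and -0.12 to 0.0060 on ko arrays, and upper-layer ones for 6 of 8, at -0.0048 to 0.084 and -0.094 to 0.011. The striatal and the upper-layer mean deviations overlapped between the groups. Vessel markers went the other way, higher for 6 of 8 at -0.24 to 0.021 on WT-titled and 0.024 to 0.14 on ko arrays. Interneuron markers were lower for 6 of 8, oligodendrocyte markers for 5 of 8 and choroid plexus markers for 1 of 5, with mean deviations that overlapped between the groups. Neuronal markers were higher for 5 of 8, and their mean deviation overlapped between the groups (-0.059 to 0.065 and -0.0038 to 0.026). Of all these markers 0 passed the adjusted threshold in limma. Those with an unadjusted p under 0.05 were 7 microglial, 3 deep-layer, 2 upper-layer, 2 striatal, 2 astrocyte, 1 vessel and 1 neuronal marker. Of all genes, 8.27% reached that level in limma and 48.2% were higher in ko. The part of these cell types in the members' values was not tested, and in dissected tissue fewer cells of a type and less RNA per cell cannot be told apart.

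LRRTM proteins, leucine-rich-repeat receptors that bind neurexins and promote excitatory synapses, held both ends of the list. Lrrtm1 read -0.77, -0.64 and -0.63 on WT-titled arrays 15, 62 and 16 and -0.30, -0.52 and -0.39 on ko arrays 53, 48 and 54. All 3 ko arrays were above all 3 WT-titled ones. The difference was +0.27 (SE 0.091, 95% interval 0.057 to 0.49, 1.21-fold), with an unadjusted p of 0.0208 and an adjusted p of 0.520 in limma, so it did not pass. It was +0.31 and +0.33 within the 2 slides, and adjusted p ran from 0.403 to 0.988 over the alternative settings.

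Lrrtm2 went the other way on both of its probes. Its brightest probe read -1.09, -0.84 and -0.91 on WT-titled arrays 15, 62 and 16 and -1.09, -1.22 and -1.17 on ko arrays 53, 48 and 54. The groups touched, since WT-titled array 15 and ko array 53 stood at nearly the same level. The difference was -0.21 (SE 0.094, 95% interval -0.44 to 0.011, limma adjusted p = 0.644), and the dimmer probe gave -0.27 with an interval of -0.55 to 0.0094. Within the slides the brightest probe differed by -0.11 and -0.21. Lrrtm3 stood at +0.10 (95% interval -0.21 to 0.42). Neither gene passed, and the difference between Lrrtm1 and Lrrtm2 was not tested.

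Lrrtm4 varied most between arrays. It read -0.76, -3.45 and -1.58 on WT-titled arrays 15, 62 and 16 and -1.02, -1.77 and -2.29 on ko arrays 53, 48 and 54. WT-titled array 62 was the lowest and array 15 of the same group the highest, a range of 2.69 that 0.678% of all genes matched or passed, so the WT-titled group alone spanned the ko group. The difference of +0.24 had a 95% interval of -1.41 to 1.88 (limma adjusted p = 0.967). Its sign followed single arrays, at -0.53 without WT-titled array 62, -0.10 without ko array 53 and +0.82 without WT-titled array 15, and it was -1.27 within one slide and +1.49 within the other. A dimmer Lrrtm4 probe, well above background on 4 of 6 arrays, read -4.81 on array 62 beside -4.74 and -5.04 on the other WT-titled arrays, so it did not show the low value of array 62. That probe differed by +0.046 between the groups.

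**Figure D2:**
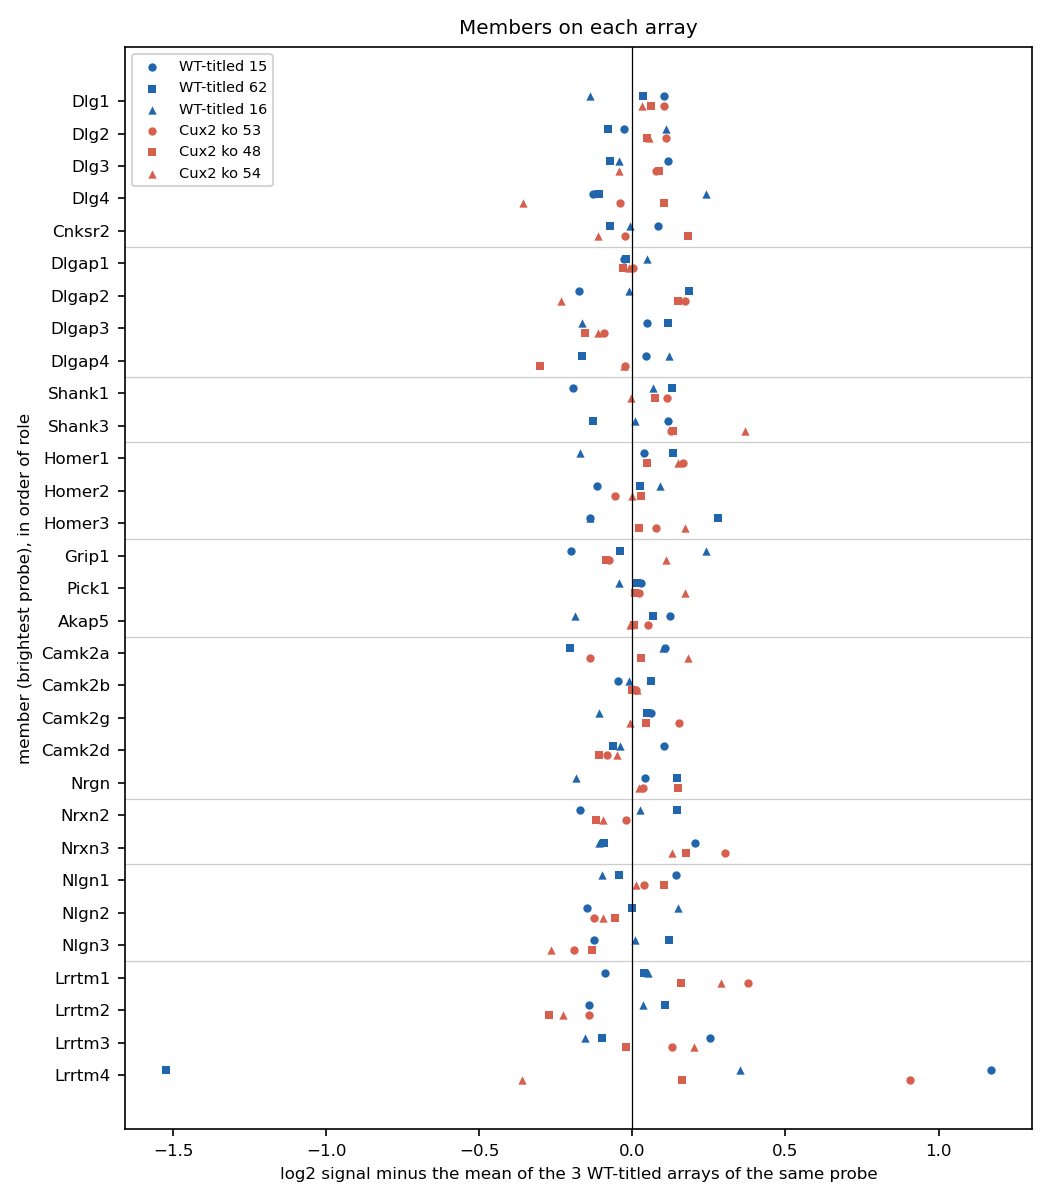
Log2 signal of each member's brightest probe on each of the 6 arrays, as the difference from the mean of the 3 WT-titled arrays of the same probe, with members in order of role and a symbol for each sample number. Most members lie close to 0 in both groups, while Lrrtm4 spreads over 2.69 log2 units.

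Neuroligins, the postsynaptic partners of neurexins, stood lower in ko for 2 of 3, of which Nlgn2 turned higher without scaling between arrays. Nlgn3 read 0.63, 0.88 and 0.77 on WT-titled arrays 15, 62 and 16 and 0.57, 0.63 and 0.49 on ko arrays 53, 48 and 54. All ko arrays lay below all WT-titled ones, although array 15 and ko array 48 stood at 0.634 and 0.629 and so all but met. The difference was -0.20 (SE 0.093, 95% interval -0.42 to 0.025, limma adjusted p = 0.675), and it was -0.073 within one slide and -0.25 within the other. Nlgn2, the neuroligin of inhibitory synapses, stood at -0.093 (95% interval -0.32 to 0.14). Nlgn1, that of excitatory synapses, stood at +0.050 (95% interval -0.17 to 0.27).

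Among the neurexins, the presynaptic partners, Nrxn3 read 1.18, 0.88 and 0.86 on WT-titled arrays 15, 62 and 16 and 1.28, 1.15 and 1.10 on ko arrays 53, 48 and 54. WT-titled array 15 lay among the ko arrays, so the groups overlapped. The brightest probe differed by +0.20 (95% interval -0.066 to 0.47, limma adjusted p = 0.736) and a dimmer probe by +0.21 (interval -0.029 to 0.45). Within the slides the brightest probe stood at -0.052 and +0.40. Without WT-titled array 15 it was +0.30 (adjusted p = 0.364). Nrxn2 stood at -0.079 and -0.11 on its 2 probes, and neither gene passed.

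SHANK proteins are the large scaffolds of the deeper postsynaptic density. Shank3 read 2.20, 1.95 and 2.09 on WT-titled arrays 15, 62 and 16 and 2.21, 2.21 and 2.45 on ko arrays 53, 48 and 54. The ko arrays were all higher, but array 15 and ko array 53 all but met. The difference was +0.21 (SE 0.11, 95% interval -0.047 to 0.46, limma adjusted p = 0.710), at +0.13 within one slide and +0.19 within the other, and it was +0.13 without ko array 54. Shank1 stood at +0.062 (95% interval -0.19 to 0.32).

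Promoter windows are shown for Lrrtm1 and Shank3, members whose ko arrays lay above the WT-titled ones, to set their sequence beside their values. Nlgn3 was the third member whose groups did not overlap. Windows run from 250 bases before to 50 after a gene's start, from RefSeq on build GRCm38.p6, and 25 of the 33 listed genes had an entry. The windows were searched on both strands for the motif CCAAT, a sequence from which Cut-domain factors, the family of Cux2, took an older name as displacement proteins. A second search was for ATCGAT, a motif that reads the same on both strands. Both printed windows hold neither, so no letters are in capitals. The first motif was found in 8 of the 25 listed genes with an entry, beside 41.1% of all genes, and the other in 0 of 25 beside 1.02%. A match or its absence describes these letters in this window and nothing about binding. The windows differ in base composition, with 40.7% G or C for Lrrtm1 and 81% for Shank3 beside a median of 52.7% over all windows.
Lrrtm1, chr6:77242227-77242526, plus strand: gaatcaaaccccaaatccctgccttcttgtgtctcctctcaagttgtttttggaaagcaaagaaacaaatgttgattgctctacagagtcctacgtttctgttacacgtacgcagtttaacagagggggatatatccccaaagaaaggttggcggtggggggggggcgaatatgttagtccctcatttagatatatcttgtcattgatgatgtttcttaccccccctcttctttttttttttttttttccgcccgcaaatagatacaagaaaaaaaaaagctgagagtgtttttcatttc
Shank3, chr15:89499358-89499657, plus strand: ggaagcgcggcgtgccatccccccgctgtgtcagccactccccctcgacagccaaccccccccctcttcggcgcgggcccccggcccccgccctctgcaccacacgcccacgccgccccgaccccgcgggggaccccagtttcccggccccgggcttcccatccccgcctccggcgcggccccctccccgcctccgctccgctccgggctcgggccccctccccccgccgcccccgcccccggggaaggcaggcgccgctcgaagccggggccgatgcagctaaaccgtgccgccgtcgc

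**Figure D3:**
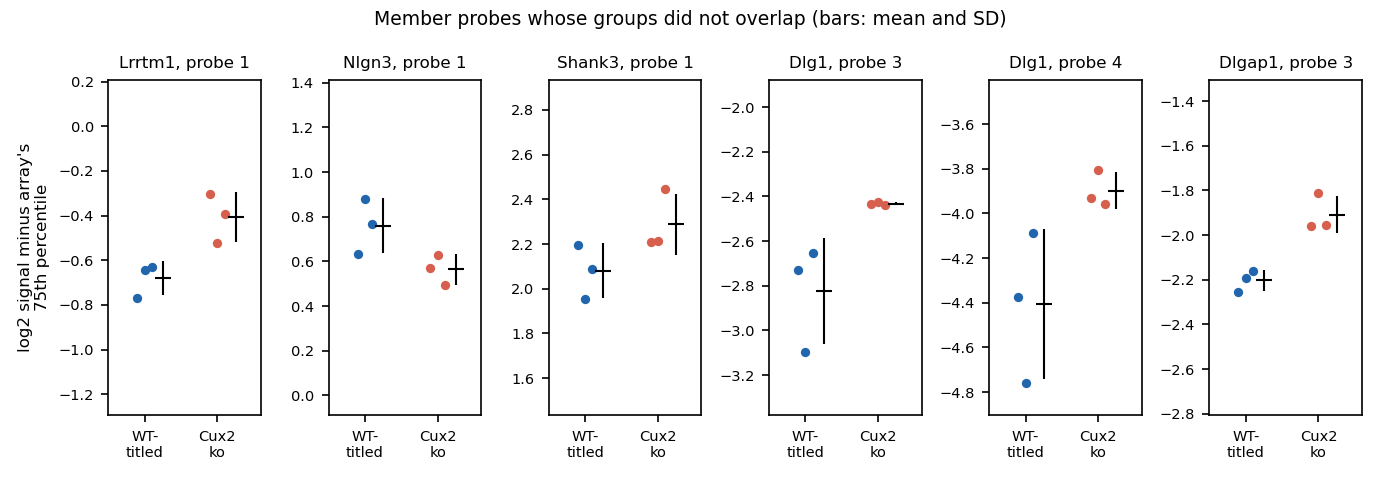
Log2 signal minus the array's 75th percentile for the 6 member probes whose groups did not overlap, with a point for each array (WT-titled blue, Cux2 ko red) and bars for the mean and SD of n = 3. All panels span 1.5 log2 units; Nlgn3 is lower and the other 5 probes are higher in ko, and gaps between the groups are small for Nlgn3 and Shank3.

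MAGUK scaffolds, which bind receptors and adhesion proteins through PDZ domains, stood between -0.099 and +0.070 on their brightest probes. Dlg4, which encodes PSD-95, read -0.30, -0.28 and 0.067 on WT-titled arrays 15, 62 and 16 and -0.21, -0.070 and -0.53 on ko arrays 53, 48 and 54. The groups overlapped in part, with WT-titled array 16 the highest and ko array 54 the lowest, at a difference of -0.099 (95% interval -0.47 to 0.28, limma adjusted p = 0.932) and -0.021 on a dimmer probe. Dlg1, which encodes SAP97, stood at +0.064, Dlg2 (PSD-93) at +0.070 and Dlg3 (SAP102) at +0.040, all with intervals that include 0. Cnksr2, a scaffold of Ras signalling that binds PSD-95, stood at +0.015.

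Dimmer probes of Dlg1 gave larger values than its brightest one. Of the 4 Dlg1 probes, the brightest differed by +0.064 and the next by +0.13 (95% interval -0.13 to 0.40). The third probe, which the array file ties to a predicted transcript, read -2.73, -3.09 and -2.65 on WT-titled arrays 15, 62 and 16 and -2.43, -2.42 and -2.44 on ko arrays 53, 48 and 54. The dimmest of the 4, tied to the same predicted transcript, read -4.37, -4.76 and -4.09 on WT-titled arrays 15, 62 and 16 and -3.93, -3.80 and -3.96 on ko arrays 53, 48 and 54. On both probes all ko arrays were above all WT-titled ones, and array 62 was the lowest. The differences were +0.39 (95% interval 0.089 to 0.69, limma adjusted p = 0.515) and +0.51 (interval 0.10 to 0.91, adjusted p = 0.521). Within the slides they were +0.30 and +0.44 for the third probe and +0.49 in both for the dimmest. Neither passed, and as both probes measure 1 predicted transcript of 1 gene they are not independent.

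DLGAP proteins, which link MAGUK scaffolds to SHANK proteins, stood lower for 3 of 4 on their brightest probes. All 4 were higher without scaling between arrays, and Dlgap1 also with quantile normalization or the percentile over bright probes, while Dlgap2 turned lower with normexp and the 75th percentile. Dlgap3, which is also abundant in striatum, read 5.67, 5.74 and 5.46 on WT-titled arrays 15, 62 and 16 and 5.53, 5.47 and 5.51 on ko arrays 53, 48 and 54. WT-titled array 16 was below every ko array, so the groups overlapped, and the difference was -0.12 (95% interval -0.35 to 0.11, limma adjusted p = 0.836). Striatal markers were also lowest in that group on array 16, at a mean deviation of -0.21 beside 0.49 and 0.50 on arrays 15 and 62. On ko arrays 53, 48 and 54 they stood at -0.37, -0.16 and -0.25, whereas Dlgap3 was highest on array 53 and lowest on array 48. The part of striatal tissue was not tested. Dlgap4 stood at -0.12 and its dimmer probe at +0.089, and Dlgap2 at +0.029 and its dimmer probe at -0.17.

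Dlgap1 held the member probe with the lowest p of all 53 tested. Its brightest probe was among the steadiest of the list, at 2.58, 2.58 and 2.65 on WT-titled and 2.60, 2.57 and 2.59 on ko arrays, a difference of -0.014 (95% interval -0.18 to 0.16). A second probe gave -8.5e-04. The third read -2.25, -2.19 and -2.16 on WT-titled arrays 15, 62 and 16 and -1.96, -1.81 and -1.95 on ko arrays 53, 48 and 54. The ko arrays were all higher on this probe, with a difference of +0.29 (SE 0.080, 95% interval 0.10 to 0.49, unadjusted p = 0.00877, limma adjusted p = 0.416), and +0.37 and +0.22 within the slides. It did not pass, and the brighter Dlgap1 probes did not show it.

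HOMER proteins bind SHANK proteins and metabotropic glutamate receptors, and a short activity-induced form of Homer1 lacks the coiled coil that joins them. Homer1 read 1.35, 1.44 and 1.14 on WT-titled arrays 15, 62 and 16 and 1.47, 1.36 and 1.46 on ko arrays 53, 48 and 54. The groups overlapped, at a difference of +0.12 (95% interval -0.12 to 0.36, limma adjusted p = 0.840). A pair of dimmer Homer1 probes of 1 transcript differed by +0.15 and +0.29 with wide intervals (-0.32 to 0.61 and -0.36 to 0.95). On the dimmest, arrays 15 and 54 were the lowest, at -2.42 and -2.30, and ko array 53 the highest at -1.40, so the spread lay within both groups. Which probe measures the short form was not determined. Homer2 stood at -0.010, with -0.0018 and +0.096 on its dimmer probes, and Homer3 at +0.091.

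The CaMKII subunits and neurogranin showed small differences. Camk2a, the alpha subunit of the kinase, read 6.36, 6.05 and 6.36 on WT-titled arrays 15, 62 and 16 and 6.12, 6.28 and 6.44 on ko arrays 53, 48 and 54. The groups overlapped, at +0.024 (95% interval -0.28 to 0.33, limma adjusted p = 0.982), and a dimmer probe gave -0.013. Camk2b stood at +0.0079 with the narrow interval of -0.17 to 0.18, and its 6 arrays lay between 5.28 and 5.39. Camk2g stood at +0.064 and Camk2d at -0.080, and the 3 dimmer tested probes of Camk2d lay between -0.069 and +0.027. Nrgn, a calmodulin-binding protein of dendritic spines, stood at +0.068 (95% interval -0.19 to 0.32).

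Adaptors and anchors linked to AMPA receptors also showed small differences. Pick1, a PDZ protein of receptor internalization, stood at +0.067 (95% interval -0.13 to 0.26), while its dimmer probe, well above background on 5 of 6 arrays, gave -0.28 (interval -1.11 to 0.55). Grip1, which anchors the same receptors, stood at -0.018 and its dimmer probe at -0.086, and Akap5, an anchor of protein kinase A and calcineurin, at +0.017.

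Over all probes of the members, 53 of 58 were tested, and the other 5 were not well above background on all 3 arrays of either group. Of the 53, 0 passed in limma (0.129% of all probes did), 4 had an unadjusted p under 0.05 (7.96% of all probes) and 6 had groups that did not overlap (13.1% of all probes). In 15 members with several tested probes, 7 had a probe of opposite sign to the brightest. Of the 4 probes under 0.05, 3 were the dimmer ones of Dlg1 and Dlgap1 described above and the other was the single Lrrtm1 probe.

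**Figure D4:**
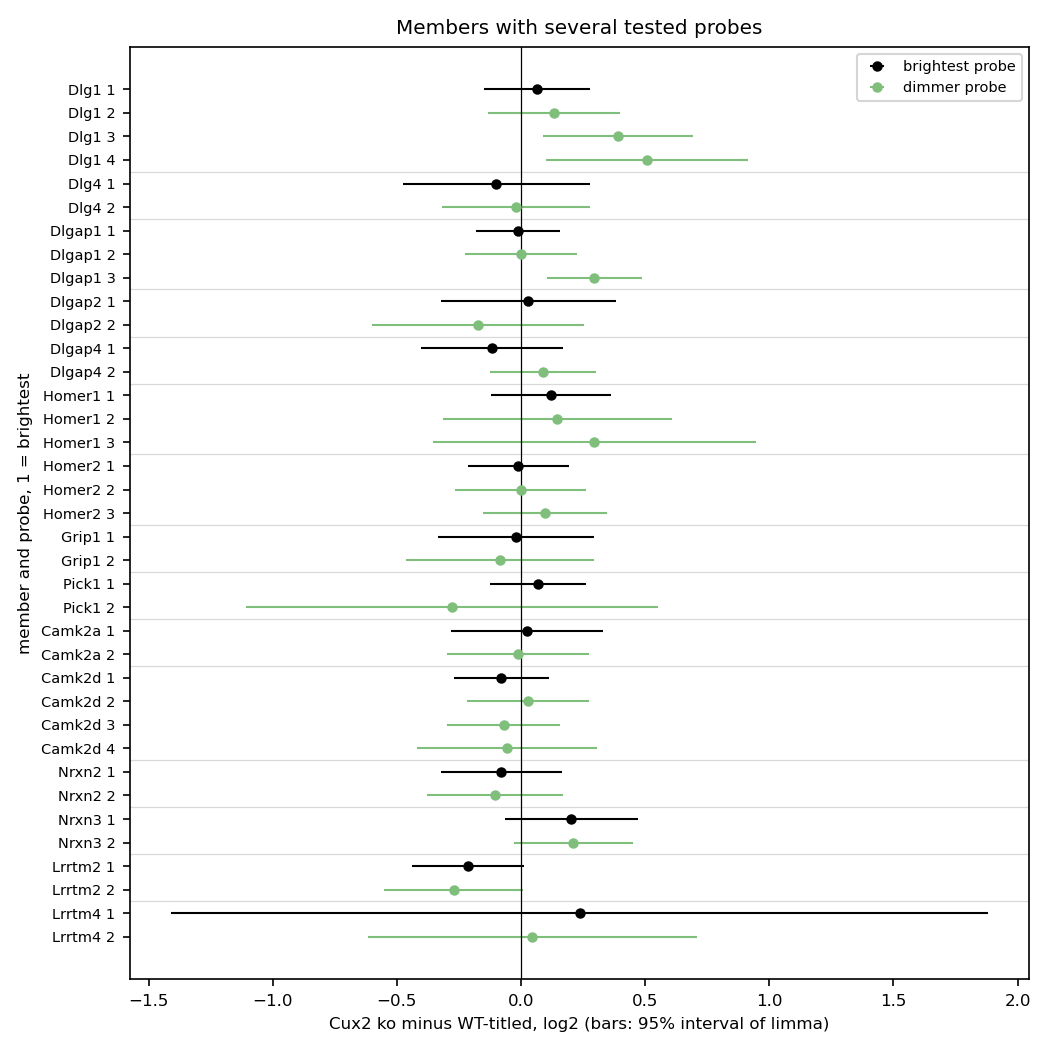
Difference between Cux2 ko and WT-titled arrays, in log2 units with 95% intervals of limma (n = 3 per group), for every tested probe of the 15 members with several, numbered from the brightest. Intervals of Dlg1 probes 3 and 4 and the third Dlgap1 probe exclude 0, whereas the brightest probes of both genes lie at +0.064 and -0.014.

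Other genes of these synaptic functions were taken from lists of their own. Of 34 further scaffold and spine genes measured, 15 were higher and 19 lower, 0 passed in limma and 1 had an unadjusted p under 0.05. That gene was Tanc2, a PSD-95-binding scaffold, at +0.21 (adjusted p = 0.533). Of 39 further adhesion genes, 22 were higher and 17 lower, 0 passed, and 4 had an unadjusted p under 0.05, beside 8.27% of all genes. All 4 were higher (3.89% of all genes) and 0 lower (4.38%). They were Cadm1, an immunoglobulin-family adhesion protein, at +0.36 (limma adjusted p = 0.386), Cbln4, a secreted ligand of neurexins and other receptors, at +0.53 (adjusted p = 0.388), Nptx2, an activity-regulated pentraxin that clusters AMPA receptors, at +0.70 (adjusted p = 0.494), and Clstn2, a calsyntenin, at +0.24 (adjusted p = 0.561). The groups did not overlap for 7 of the 39, beside 13.6% of all genes, these 4 being higher and 3 lower in ko (Mdga1, Lrfn3 and Ptprd).

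Of 18 calmodulin, calmodulin-binding, CaMK and calcineurin genes, 7 were higher and 11 lower, 0 passed and 1 had an unadjusted p under 0.05, the calmodulin gene Calm3 at +0.37 (limma adjusted p = 0.521). Of 5 genes of the inhibitory postsynapse, 2 were higher and 3 lower, and 0 passed or had an unadjusted p under 0.05. Gphn, which encodes the scaffold gephyrin, stood at -0.026. The medians of these 4 lists lay between -0.026 and +0.014.

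Members varied between arrays about as much as other genes. The median range of a member over the arrays was 0.32 log2 units, beside 0.37 over all genes, and it ran from 0.079 for Dlgap1 to 2.69 for Lrrtm4. After Lrrtm4 the widest was Dlg4 at 0.60, a range that 24% of all genes matched or passed. Members were highest on array 62 in 8 cases and on array 15 in 7, and lowest on array 16 in 10, while 0 were lowest on ko array 53. Signs of the difference were the same within both slides for 14 members and opposite for 17.

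**Figure D5:**
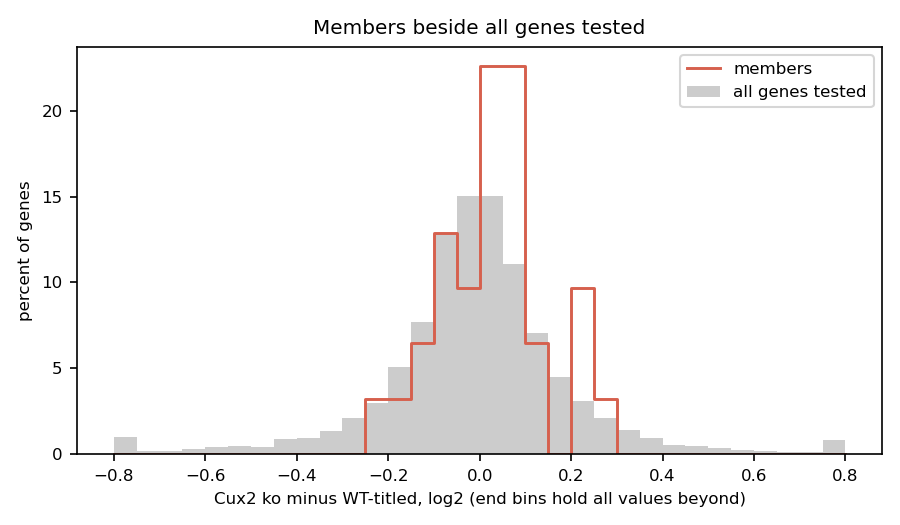
Share of genes in each 0.05-wide bin of the difference between Cux2 ko and WT-titled arrays (log2), for the 31 members (line) and all 17121 genes tested (grey bars), with end bins holding all values beyond. All members lie between -0.21 and +0.27, inside the bulk of all genes.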

How the data were processed

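Per the file headers, the software was Feature Extraction 9.1.3.1 of Agilent, whose processed signal, as deposited, is an intensity after spatial and multiplicative detrending, in which surrogates replace the dimmest readings. Background and outlier flags in the deposited files are that software's. A deposited table also holds the authors' own log2 values, with 1 distribution over all arrays; no source used here states its scale, centring or normalization, and it was used as an alternative.

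Of 45018 spots, 1639 controls were left out, as were 120 outlier spot values; 0 were saturated. Spots of a probe were averaged, and log2 of the processed signal minus the array's 75th percentile gave 41174 probes. A probe was tested where well above background on all 3 arrays of a group, a filter that uses the groups. Groups came from the titles. The groups were compared by limma 3.58.1 (lmFit, then eBayes; R 4.3.3) over all 25504 probes, at an adjusted p of 0.05, without a block; figures used matplotlib 3.10.9. Probes were named by accession, symbol or synonym through the RefSeq genes of GRCm38.p6. The 20 alternatives changed scaling, background correction (normexp, offset 50), filter, variance model, array weights, probe summary, slide as a block, the source of values and the arrays left out.

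By rule, values in every sample go to members past the threshold, without overlap, of lowest p, or with probes of opposite sign of which 1 has an unadjusted p under 0.05; from other lists, up to 4 genes of lowest p were eligible. Those of Lrrtm4, Dlg4, Camk2a and the dimmer Dlg1 and Homer1 probes, and the names Mdga1, Lrfn3 and Ptprd, were added after their values were seen. The members and lists were chosen with earlier results of these data known. Tested on simulated data for this comparison (25504 probes, 50 of them changed at each size), the fit recovered 32% of 1.5-fold changes, 84% of 2-fold changes and 98% of both larger sizes, and made 9 false calls.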

Additional observations from a re-analysis of the deposited data

How the results depend on the processing

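No paired analysis was possible because the groups share no replicate number. Over 20 alternatives 0 members passed in limma, with an unadjusted p under 0.05 for 0 to 4 of them. The share of all genes at that level in each alternative is not given here, so these counts cannot be read as particular to the members. Of 620 member values, 561 kept their sign. In all 20 alternatives 10 members kept it (Camk2g, Dlg2, Homer1, Homer3, Lrrtm1, Lrrtm2, Lrrtm3, Nlgn3, Nrxn3 and Shank3). Of these, Camk2g (-0.041 and +0.18), Lrrtm3 (-0.16 and +0.26) and Nrxn3 (-0.052 and +0.40) had opposite signs within the 2 slides. Taking only the 26 members named so on the array, a choice made after seeing the data, gave 0 called, 3 without overlap and a median of +0.026. Dim probes and 3 arrays per group limit what could be seen.

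The median of +0.03 became +0.045 with quantile normalization, +0.20 without scaling, +0.046 with the 75th percentile over probes above background on all arrays and -0.023 with normexp and the 75th percentile, and lay between +0.019 and +0.056 with arrays left out (+0.056 without WT-titled array 15, +0.051 without ko array 54). The 3 members without overlap became 6 with normexp and quantile normalization, 7 with the mean of a gene's probes and 4 to 10 with arrays left out (10, 8 and 6 without WT-titled arrays 15, 62 and 16), where fewer arrays make overlap rarer. The share of all genes without overlap in these settings is not given here, so these counts cannot be read as particular to the members. Of all genes, the 22 called became 0 with normexp and the 75th percentile, 3 with probes above background on at least 1 array, 2 without a filter, 36 with a trended robust variance and 10 with slide as a block, and 2 to 44 with arrays left out (6 without WT-titled array 15, 2 without 16, 44 without ko array 53, 8 without 54). The 33 probes called became 0, 3, 2 and 15 in the first 3 of these settings and with slide as a block, and 2 to 60 with arrays left out (7, 2, 60 and 12 without the same arrays). The causes were not tested.

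Signs turned as follows. Without scaling Camk2d stood at 0.094, Dlg4 at 0.076, Dlgap1 at 0.16, Dlgap3 at 0.054, Dlgap4 at 0.057, Grip1 at 0.16, Homer2 at 0.16, Nlgn2 at 0.082 and Nrxn2 at 0.096. With normexp and the 75th percentile Akap5 stood at -0.080, Camk2a at -0.054, Camk2b at -0.11, Dlg3 at -0.080, Dlgap2 at -0.0093, Nlgn1 at -0.0019, Nrgn at -0.015 and Pick1 at -0.023. With slide as a block Akap5 stood at -0.0042, Camk2a at -0.043, Cnksr2 at -0.016, Grip1 at 0.017 and Homer2 at 0.0068. With the mean of probes Dlgap1 stood at 0.093, Dlgap2 at -0.073, Homer2 at 0.028 and Pick1 at -0.11. Dlgap1 and Homer2 stood at 0.0062 and 0.011 with quantile normalization, 0.019 and 0.019 with normexp and quantile normalization, 0.0036 and 0.0073 with the percentile over bright probes, and 6.8e-04 and 0.0071 in the authors' deposited table, and Camk2b at -0.0074 with array weights. With arrays left out the range was -0.077 to 0.078 for Akap5, -0.079 to 0.11 for Camk2a, -0.016 to 0.038 for Camk2b, -0.069 to 0.078 for Cnksr2, -0.0046 to 0.12 for Dlg1, -0.20 to 0.031 for Dlg4, -0.028 to 0.0096 for Dlgap1, -0.059 to 0.16 for Dlgap2, -0.12 to 0.10 for Grip1, -0.068 to 0.035 for Homer2, -0.53 to 0.82 for Lrrtm4, -0.024 to 0.14 for Nrgn and -0.036 to 0.13 for Shank1.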
